A study of Mus musculus with 10 samples.

Results

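This account concerns 10 genes of the oxidative stress response, measured in mouse RPE/choroid, that is, the pigmented epithelium under the retina (RPE) together with the vascular coat behind it. They were taken by symbol as a fixed set of 10 among 55487 distinct genes of the deposited count table: Nfe2l2, Nqo1, Hmox1, Gclc, Gclm, Txnrd1, Srxn1, Sod1, Sod2 and Cat. All 10 were found, and all 10 passed the filter on low counts. The question was whether their messenger RNA differed between mice built to lose their fat cells and mice that keep them.

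The 5 ADQ samples came from iDTR mice carrying adiponectin-Cre and given diphtheria toxin into the peritoneum daily for 7 weeks. The 5 control samples came from iDTR mice, labelled without Cre, that also received the toxin by the same route; the duration in control is not stated in the labels. iDTR mice carry a diphtheria toxin receptor at the Rosa26 locus that Cre switches on, so that toxin acts on cells in which the adiponectin promoter has driven Cre. Both groups thus share the iDTR allele and the toxin, and differ in Cre. The age of the mice, and whether each sample is a separate animal, are not given, so the p-values speak only of variation among these libraries, some of which may be technical.

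NRF2, the protein encoded by Nfe2l2, is a transcription factor that is kept low by KEAP1, an adaptor that marks it for degradation. Oxidants and electrophiles modify KEAP1, NRF2 accumulates, pairs with small MAF proteins and binds antioxidant response elements near genes for glutathione synthesis, thioredoxin recycling, quinone reduction and haem breakdown. Because NRF2 is controlled largely through protein stability, its messenger RNA is not a direct reading of its activity. The RPE faces light, high oxygen tension and a daily load of photoreceptor membrane, and its antioxidant enzymes have long been studied for that reason.

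The core letters of the antioxidant response element, TGACNNNGC, were searched on both strands in RefSeq promoter windows of GRCm38.p6, which run from 250 bases before to 50 bases after an annotated start. The windows cover 8 of the 10 genes, without Hmox1 and Gclc. At least 1 match lay in a window of 5 of these 8 genes, and 13.99% of all 27025 genes in the table have one; by window it was 5 of 10 for these genes and 12.4% of all 32851 windows of the same length. The 5 matches are shown because the antioxidant response element is the sequence feature by which NRF2 targets are usually grouped. Whether any of the 5 acts as such an element was not tested, and the windows of Nqo1, Sod2 and Cat held no match. Capitals mark the 9 matched letters, and each line reads along the gene. In Nfe2l2 the match is on the strand of the gene, and in the other 4 it is on the opposite strand, so that it reads GCNNNGTCA.
Nfe2l2: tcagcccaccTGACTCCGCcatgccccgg
Gclm: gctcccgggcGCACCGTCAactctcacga
Srxn1: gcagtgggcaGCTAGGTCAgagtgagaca
Txnrd1: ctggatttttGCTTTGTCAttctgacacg
Sod1: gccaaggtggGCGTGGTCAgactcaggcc
The Nfe2l2 stretch lies at chr2:75704885-75704913 on the minus strand, and the other 4 lie on plus strands. Gclm is at chr3:122245413-122245441, Srxn1 at chr2:152105542-152105570, Txnrd1 at chr10:82859104-82859132 and Sod1 at chr16:90220696-90220724. The Srxn1 match begins after the annotated start and the other 4 lie before it; the Txnrd1 match is in 1 of its 3 windows. A match describes letters in a window and is not a binding site, and a window without one says nothing about NRF2 at that gene.

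None of the 10 genes passed the test between ADQ and control, in either direction. The test was edgeR's quasi-likelihood test with Benjamini-Hochberg adjustment over 20684 genes, of which 0.827% were called, 0.74% higher and 0.087% lower in ADQ. At an unadjusted p under 0.05 there were 0 of the 10, where 13.8% of all genes had one, and 0 of the 10 had groups that did not overlap, against 3.16% of all genes. DESeq2 and voom with quality weights, run as other tools, also called 0 of the 10. Of the 10 log2 fold changes (ADQ over control), 4 were above 0 and 6 below; they ran from -0.28 to 0.15 with a median of -0.01, and the median of all genes tested was 0.01. Each 95% interval is for 1 gene taken alone. Across the 10 genes, in this fit without covariates, the intervals reached no lower than 0.637-fold and no higher than 1.33-fold (log2 -0.65 and 0.41). With the macrophage marker covariate described below, the log2 fold changes of Gclc (0.52) and Sod1 (-0.69) lay outside that range. Levels below are CPM, the read count of a gene scaled to a fixed library total, with TMM, a correction for library composition; in such bulk samples fewer cells of a type and less RNA per cell cannot be told apart.

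**Figure D1:**
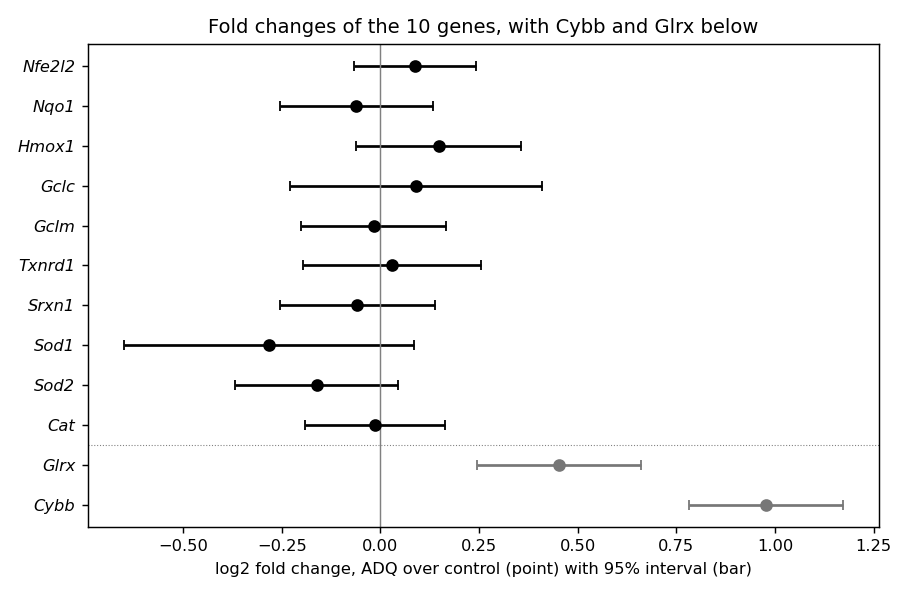
Log2 fold change, ADQ over control (horizontal axis), of the 10 genes and, below the dotted line, of Glrx and Cybb. Points are estimates from edgeR and bars are 95% intervals; all 10 intervals include 0, from -0.65 at the lowest (Sod1) to 0.41 at the highest (Gclc), while those of Glrx and Cybb do not.

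The libraries held 43591245 to 64087660 counts in ADQ and 47997064 to 50974422 in control. The lowest count of any of the 10 genes in any library was 1286, for Gclc in ADQ 1, so counting error was small beside the spread between samples. The 10 defining RPE markers tested, Rpe65 among them, summed to 1.90 to 3.06% of counts in ADQ and 2.24 to 3.37% in control, which is the pattern the label calls for. Adipoq, whose promoter drives the Cre, was at 0.18 to 1.67 CPM in ADQ; in control it was at 4.06 to 7.93 CPM in 4 libraries and at 0 in control 5. Control 5 was also the lowest of all 10 libraries in adipocyte markers as a whole, below every ADQ library. Their mean was 1.88 log2 CPM in control 5, 2.06 to 3.20 in ADQ and 3.76 to 4.45 in the other controls. Without control 5, 0 of the 10 genes were called.

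Nfe2l2 encodes NRF2 itself (ENSMUSG00000015839, chromosome 2, 75675513 to 75704641, GRCm38, here and below from GENCODE M21). It was at 105, 112, 112, 112 and 103 CPM in ADQ 1 to 5, and at 100.04, 102, 111, 102 and 96.5 CPM in control 1 to 5. ADQ 2, 3 and 4 stood above every control, control 3 came next to them, and the groups overlapped. The means were 109 ± 4.19 CPM in ADQ and 102 ± 5.45 in control (SD, n = 5 each). The log2 fold change was 0.09 (SE 0.07, 95% interval -0.07 to 0.24, edgeR adjusted p = 0.595). Nfe2l2 had the smallest SE of the 10, and its interval ran to an 18.3% rise on one side and to 0.955-fold on the other.

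**Figure D2:**
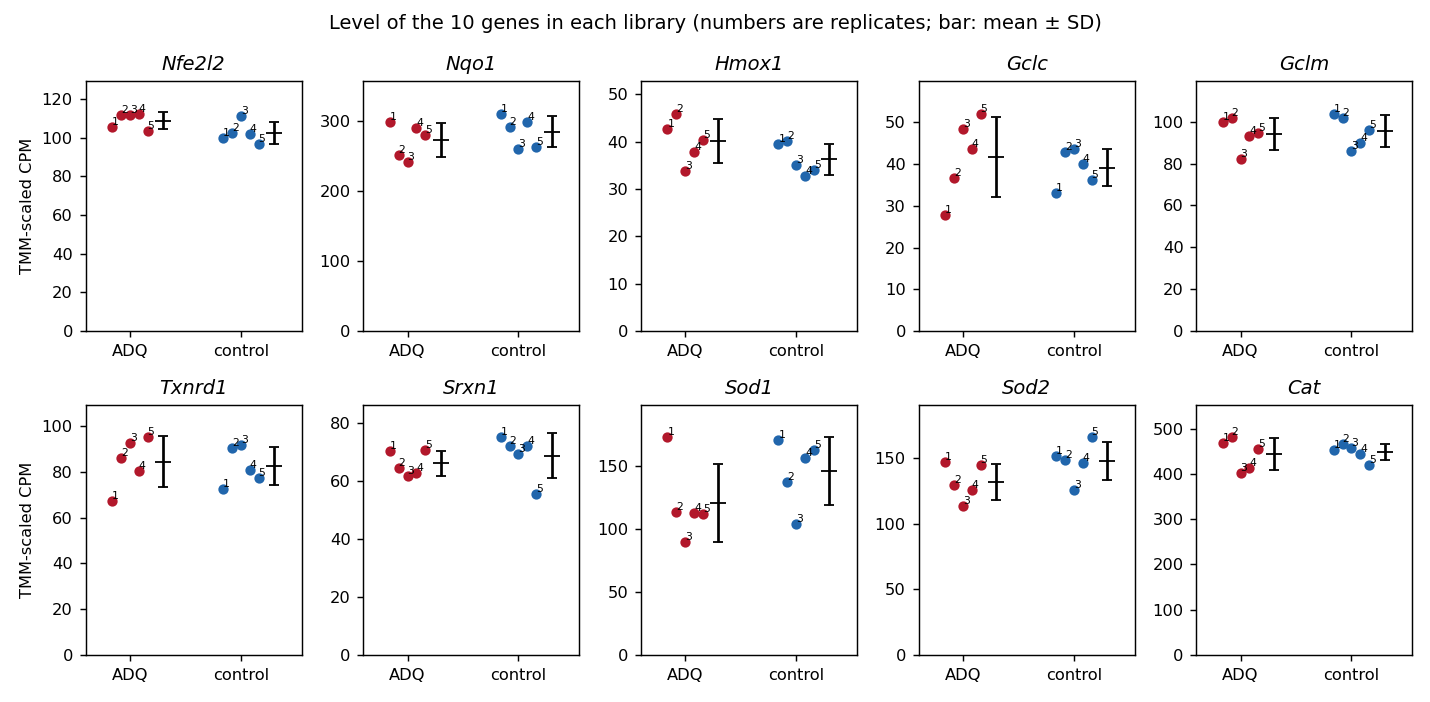
TMM-scaled CPM (vertical axes, from 0) of each of the 10 genes in the 5 ADQ and 5 control libraries. Points are libraries with their replicate number, and bars are mean ± SD; the groups overlap in every panel, and Gclc and Sod1 in ADQ have the widest spread relative to the mean (SD 23.1% and 25.8% of the mean).

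Gclc and Gclm encode the catalytic and the modifier subunit of glutamate-cysteine ligase, the rate-limiting enzyme of glutathione synthesis. Gclc (chromosome 9, 77754535 to 77794485) was at 27.8, 36.6, 48.3, 43.5 and 52.0 CPM in ADQ 1 to 5, and at 33.1, 42.8, 43.6, 39.9 and 36.1 CPM in control 1 to 5. The ADQ libraries held both the lowest and the highest value of all 10 libraries, and replicate 1 was the lowest of each group. Gclc had a log2 fold change of 0.09 (SE 0.15, 95% interval -0.23 to 0.41, edgeR adjusted p = 0.806); with the macrophage marker list described below as a covariate it was 0.52 (edgeR adjusted p = 0.381). Gclm (chromosome 3, 122245557 to 122270732) was steadier, at 99.7, 102, 82.2, 93.2 and 94.6 CPM in ADQ and 104, 102, 86.0, 89.8 and 96.1 CPM in control. Replicate 3 was the lowest library of each group, and the means almost coincided, at 94.3 ± 7.64 CPM in ADQ and 95.4 ± 7.58 in control (log2 fold change -0.02, edgeR adjusted p = 0.945). The ratio of Gclc to Gclm counts within a library averaged 0.448 ± 0.129 in ADQ and 0.413 ± 0.071 in control (SD, n = 5 each). That ratio ranged from 0.279 to 0.587 in ADQ alone, a wider span than in control, and showed no difference past the threshold by an exact two-sided permutation test (p = 0.722, smallest possible 0.00794; adjusted over the 3 ratios tried, 0.722).

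Txnrd1 and Srxn1 serve the recycling of protein thiols. Txnrd1 (chromosome 10, 82833951 to 82897712), the cytosolic thioredoxin reductase, was at 67.2, 86.1, 92.8, 80.5 and 95.1 CPM in ADQ 1 to 5 and at 72.4, 90.6, 91.7, 80.9 and 77.5 CPM in control 1 to 5. As with Gclc, replicate 1 was the lowest of each group. Its log2 fold change was 0.03 (SE 0.11, 95% interval -0.20 to 0.26, edgeR adjusted p = 0.917). Srxn1 (chromosome 2, 152105516 to 152111376), sulfiredoxin, which restores over-oxidized peroxiredoxins, was at 70.4, 64.4, 61.8, 62.7 and 70.6 CPM in ADQ and at 74.97, 71.9, 69.1, 72.1 and 55.5 CPM in control. Control 5 was the lowest of all libraries, control 3 lay below the ADQ 1 and 5 values, and the other 3 controls were the highest of all. Srxn1 had a log2 fold change of -0.06 (SE 0.09, 95% interval -0.25 to 0.14, edgeR adjusted p = 0.797), and it was -0.13 without control 5.

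Nqo1 and Hmox1 are the NRF2 targets most often used as readouts. Nqo1 (ENSMUSG00000003849, chromosome 8, 107388225 to 107403206), a quinone reductase, was at 299, 252, 243, 291 and 280.5 CPM in ADQ 1 to 5, and at 311, 291, 261, 298 and 263 CPM in control 1 to 5. ADQ 2 and 3 were the lowest libraries, control 3 and 5 came next above them, and the other 6 were higher. The means were 273 ± 24.6 CPM in ADQ and 285 ± 22.2 in control, and the 95% interval of the log2 fold change, -0.25 to 0.13, had an upper bound of a 9.60% rise (edgeR adjusted p = 0.783).

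Hmox1 (ENSMUSG00000005413, chromosome 8, 75093621 to 75100589), haem oxygenase 1, degrades haem and is also abundant in macrophages. It was at 42.7, 45.9, 33.8, 37.9 and 40.4 CPM in ADQ 1 to 5, and at 39.5, 40.0, 34.99, 32.7 and 34.0 CPM in control 1 to 5. ADQ 1, 2 and 5 stood above every control, and ADQ 3 and 4 lay within the control range. The means were 40.1 ± 4.59 CPM in ADQ and 36.2 ± 3.32 in control, and the log2 fold change of 0.15, the highest of the 10, did not pass (SE 0.10, 95% interval -0.06 to 0.36, edgeR adjusted p = 0.506). Macrophage markers moved in the same direction. All 16 of 16 tested had a log2 fold change above 0 in the edgeR fit (median 0.30), 2 of them rose, Aif1 and Adgre1, and their summed level was 0.672 to 1.06% of counts in ADQ and 0.612 to 0.851% in control. In the authors' deposited table Csf1r (-0.012) and Cd68 (-0.0087) are just below 0, and the other markers of the list are above 0. The mean of the list in log2 CPM was highest in ADQ 2 (6.34) and ADQ 1 (6.26), the same 2 libraries that were highest in Hmox1. In control the orders differed. Control 5 had the highest list mean (5.93) with Hmox1 at 34.0 CPM, and control 1 the lowest (5.81) with Hmox1 at 39.5 CPM. The groups did not overlap in the list mean, 6.16 ± 0.145 in ADQ against 5.86 ± 0.05 in control (exact two-sided permutation p = 0.00794, the smallest possible, and 0.0278 adjusted over 14 marker lists). With the macrophage list as a covariate the log2 fold change of Hmox1 was -0.14 (edgeR adjusted p = 0.723); because the list separates the groups, that fit has little left to estimate a group difference, and the part of macrophages in the Hmox1 values was not tested.

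Sod1, Sod2 and Cat remove superoxide and hydrogen peroxide directly. Sod1 (ENSMUSG00000022982, chromosome 16, 90220754 to 90226329), the cytosolic copper-zinc superoxide dismutase, was at 173, 114, 90.2, 113 and 112 CPM in ADQ 1 to 5, and at 171, 137, 104, 157 and 163 CPM in control 1 to 5. In ADQ, library 1 held the highest value of all 10 while the other 4 were low; in control, library 3 was low while the other 4 were higher. The means were 120.5 ± 31.0 CPM in ADQ and 146 ± 26.8 in control, the largest difference among the 10 genes and also the one with the largest SE (log2 fold change -0.28, SE 0.17, 95% interval -0.65 to 0.09, edgeR adjusted p = 0.47). Without ADQ 1 the log2 fold change was -0.45 (edgeR adjusted p = 0.116), and without any other single library it stayed between -0.38 and -0.19. It was -0.07 with the RPE marker list as a covariate and -0.69 with the macrophage list (edgeR adjusted p = 0.843 and 0.385); RPE markers averaged 9.65 ± 0.143 log2 CPM in ADQ and 9.75 ± 0.116 in control, and their part in the Sod1 values was not tested.

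Sod2 (chromosome 17, 13006846 to 13040063), the mitochondrial manganese enzyme, was at 147, 129, 114, 126 and 144 CPM in ADQ 1 to 5 and at 152, 149, 126, 146 and 166 CPM in control 1 to 5. Control 5 was the highest and ADQ 3 the lowest, with the groups overlapping between 126 and 147 CPM. Sod2 had a log2 fold change of -0.16 (SE 0.10, 95% interval -0.37 to 0.04, edgeR adjusted p = 0.461), the smallest adjusted p of the 10; with the macrophage covariate it was -0.35 (edgeR adjusted p = 0.407). Cat (ENSMUSG00000027187, chromosome 2, 103453849 to 103485160), the peroxisomal catalase, was the most abundant of the 10 in counts, at 469, 481, 403, 414 and 456 CPM in ADQ and 454, 467, 457, 444 and 421 CPM in control. The ADQ libraries held both its highest and its lowest values, and the means of 445 ± 34.5 CPM in ADQ and 449 ± 17.6 in control differed by a log2 fold change of -0.01 (95% interval -0.19 to 0.16, edgeR adjusted p = 0.958). The ratio of Sod1 to Sod2 counts was 0.905 ± 0.163 in ADQ and 0.986 ± 0.12 in control, and that of Nqo1 to Nfe2l2 was 2.52 ± 0.289 in ADQ and 2.79 ± 0.285 in control. Neither ratio passed by the exact two-sided permutation test (p = 0.349 and 0.167; adjusted over the 3 ratios, 0.524 and 0.50).

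Levels can be set between genes only per length. Per kilobase of annotated exon, Nqo1 (176 ± 15.9 CPM per kilobase in ADQ and 183 ± 14.3 in control) and Cat (170.1 ± 13.2 in ADQ and 172 ± 6.75 in control) stood far above the other 8, with ranges of mean ± SD that overlapped each other. Sod1, Nfe2l2, Srxn1 and Hmox1 came next, between 22.9 and 30.3 CPM per kilobase in ADQ and between 20.7 and 36.9 in control. Gclm, Sod2, Txnrd1 and Gclc were the lowest, between 11.1 and 14.99 in ADQ and between 10.4 and 15.2 in control. Within these orders, neighbours had overlapping ranges of mean ± SD, except Nfe2l2 above Srxn1 in ADQ, and Sod1 above Nfe2l2 and Sod2 above Txnrd1 in control. These places rest in part on the length used; the annotated exons of Sod1, for example, include a long retained intron. Per kilobase of the longest protein-coding transcript, a length chosen after seeing the data, Sod1 was at 188 ± 48.4 CPM in ADQ and 229 ± 41.8 in control, beside or above Nqo1 and Cat, while Gclc stayed lowest at 12.2 ± 2.81 in ADQ and 11.4 ± 1.30 in control. By that length Txnrd1 (23.3 ± 3.08 in ADQ and 22.8 ± 2.31 in control) and Sod2 (22.5 ± 2.33 in ADQ and 25.2 ± 2.44 in control) left the lowest genes and stood level with Srxn1 (23.5 ± 1.5 in ADQ and 24.4 ± 2.73 in control) and Hmox1 (25.6 ± 2.92 in ADQ and 23.1 ± 2.11 in control). Nfe2l2 then stood above these 4, at 44.0 ± 1.69 in ADQ and 41.4 ± 2.20 in control.

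The 10 genes did not move as a block from library to library. Over the 10 libraries, 45 pairs of genes were compared in log2 CPM, together with 10 relations to a library trend described next, and adjusted p-values are over these 55. Of the 45 pairs, 25 had a Pearson r above 0 and 20 below, and 5 pairs passed, 2 with positive and 3 with negative r. Gclc and Txnrd1 ran together (r = 0.91, permutation p = 3.5e-04, adjusted 0.00963; Spearman rho = 0.915, permutation p = 6.4e-04, adjusted 0.0103; r = 0.80 without the 2 libraries farthest from the median). Sod1 and Sod2 also ran together (r = 0.865, permutation p = 0.0015, adjusted 0.0206; rho = 0.83, permutation p = 0.00467, adjusted 0.0321; r = 0.835 without 2 libraries). Sod2 ran against Nfe2l2 (r = -0.941, permutation p = 1.3e-04, adjusted 0.00715; rho = -0.915, permutation p = 5.1e-04, adjusted 0.0103; r = -0.913 without 2 libraries). Sod1 ran against Gclc (r = -0.78, permutation p = 0.00695, adjusted 0.0478; rho = -0.927, permutation p = 3.4e-04, adjusted 0.0103; r = -0.782 without 2 libraries) and against Txnrd1 (r = -0.818, permutation p = 0.00471, adjusted 0.037; rho = -0.879, permutation p = 0.00166, adjusted 0.0182; r = -0.691 without 2 libraries). In deviations from the group means, which remove any difference between ADQ and control, these 5 r were 0.911, 0.824, -0.919, -0.819 and -0.883. The 2 subunits Gclc and Gclm did not run together (r = -0.587, permutation p = 0.075, adjusted 0.202; rho = -0.673, permutation p = 0.0393, adjusted 0.121; r = -0.762 without 2 libraries).

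A feature of the libraries as a whole went along with some of these patterns. For each library a slope was fitted of log2 CPM, taken as the deviation from the mean of each gene, on log2 exon length over 15917 genes; a positive slope means that long genes read relatively high in that library. It was -0.10, 0.00, 0.07, -0.00 and 0.05 per doubling of length in ADQ 1 to 5, and -0.07, -0.01, 0.12, 0.01 and -0.07 in control 1 to 5, so the groups overlapped. Sod1 was high where the slope was low (r = -0.851, permutation p = 0.00197, adjusted 0.0217; rho = -0.903, permutation p = 7.5e-04, adjusted 0.0103; r = -0.839 without 2 libraries). Gclc was high where the slope was high (r = 0.814, permutation p = 0.00416, adjusted 0.037; rho = 0.855, permutation p = 0.00273, adjusted 0.0215; r = 0.873 without 2 libraries), and so was Txnrd1 (r = 0.858, permutation p = 0.00125, adjusted 0.0206; rho = 0.867, permutation p = 0.00198, adjusted 0.0182; r = 0.843 without 2 libraries). By the exon length on which the slope was fitted, Sod1 (3.97 kilobases) and Gclc (3.77 kilobases) are alike, and the longer Gclm (6.29 kilobases) and Sod2 (10.01 kilobases) had an r below 0, at -0.746 (permutation p = 0.0139, adjusted 0.0763; rho = -0.745, permutation p = 0.017, adjusted 0.0794; r = -0.683 without 2 libraries) and -0.687 (permutation p = 0.0286, adjusted 0.112; rho = -0.733, permutation p = 0.0203, adjusted 0.0858; r = -0.71 without 2 libraries), which did not pass. By the longest protein-coding transcript, Sod1 (0.64 kilobases) is the shortest of the 10, Gclc has 3.42 kilobases, and Gclm (5.59) and Sod2 (5.86) are the longest. The part of transcript length in these relations was not tested. With the slope as a covariate, chosen after seeing the data, the SE of Sod1 was 0.08 in place of 0.17, and its log2 fold change was -0.25 (95% interval -0.42 to -0.08) with an edgeR adjusted p of 0.105, so it still did not pass. Under the same covariate 0 of the 10 genes passed.

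**Figure D3:**
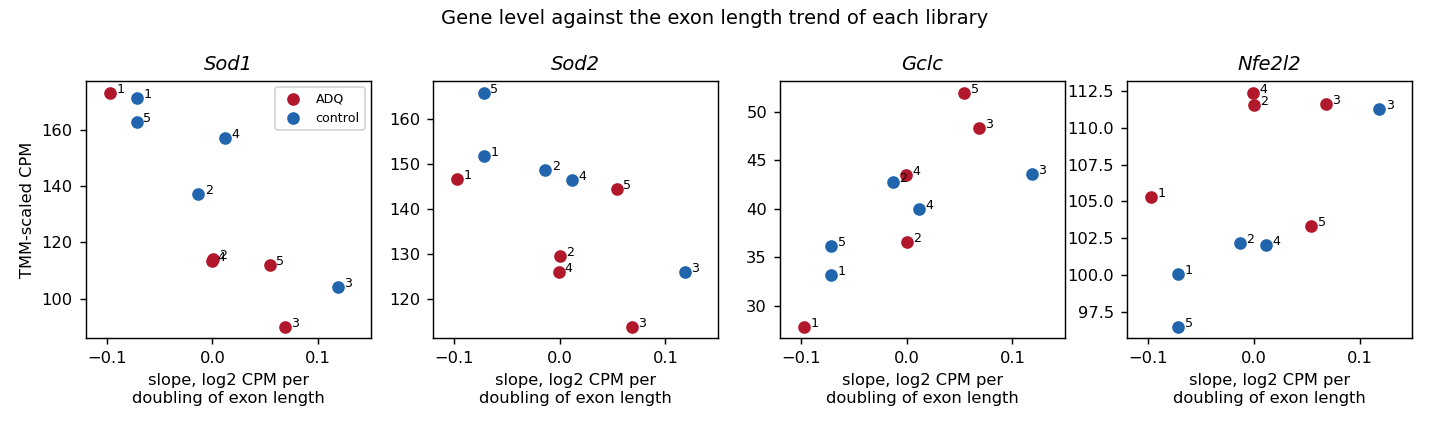
TMM-scaled CPM (vertical axes, not from 0) of Sod1, Sod2, Gclc and Nfe2l2 against the exon length slope of each library (horizontal axes, log2 CPM per doubling of exon length). Points are libraries with their replicate number; Sod1 falls with the slope from 173 CPM in ADQ 1, Gclc rises with it, and ADQ and control mix along the axis.

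By likeness over the 10 libraries, the protein-coding gene nearest to Sod1 among 13745 with a mean of at least 1 CPM was Mxd4, with a Pearson r of 0.997. Txnrd1 was nearest to Rnf14 (r = 0.978), Sod2 to Zfand2b (r = 0.984), Srxn1 to Tuba1a (r = 0.975), Nqo1 to Pex14 (r = 0.971) and Nfe2l2 to Tgfb3 (r = 0.965). Gclc was nearest to Phf12 (r = 0.959), Hmox1 to Crtap (r = 0.958), Cat to Cd5l (r = 0.95) and Gclm to Cxxc4 (r = 0.947). None of the 10 had another of the 10 among its 3 nearest. These r are the highest of many and are descriptions, since all libraries share their scaling.

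The rest of the pathway gave few calls either. Of 153 further genes listed for NRF2 control, NRF2 targets and oxidant handling, 147 were tested, and 2 rose, Cybb and Glrx, while 0 fell. Of all genes tested 0.827% were called, and 2 of 147 is close to that background. The balance of directions rests on the test used: DESeq2 called 3 higher and 4 lower, voom 4 higher and 5 lower, and the fit with the length covariate described above 3 higher and 4 lower (Gsta4, Msrb2, Mt1 and Pex6). Among the 147 genes, 100 were lower in ADQ by the sign of the log2 fold change, and the median was -0.07. Over all genes tested 48.2% were below 0 with a median of 0.01, and among the 4776 genes at least as abundant as the least abundant of the 10, 60.8% were below 0 with a median of -0.05.

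The 14 regulators of NRF2 gave 0 calls and a median of -0.01. Keap1 was at 72.5 ± 5.23 CPM in ADQ and 73.5 ± 5.43 in control (log2 fold change -0.02, 95% interval -0.19 to 0.15). Bach1, a repressor that competes with NRF2 at Hmox1, was at 9.37 ± 1.34 CPM in ADQ and 9.36 ± 1.08 in control, and Sqstm1, which sequesters KEAP1 and is itself an NRF2 target, at 849 ± 42.3 CPM in ADQ and 823 ± 32.6 in control. The 3 regulators with the smallest p were Rbx1 and Btrc, parts of ubiquitin ligases, and Nfe2l1, a relative of Nfe2l2, with log2 fold changes of -0.18, -0.13 and 0.13.

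Among 39 other NRF2 targets tested, 0 passed, 30 had a log2 fold change below 0, and the median was -0.11. Aldh3a1, an aldehyde dehydrogenase that is a major protein of the cornea, had the smallest p, at 77.9 to 93.0 CPM in ADQ and 94.8 to 229 CPM in control, with no overlap (log2 fold change -0.77, edgeR adjusted p = 0.131). Gsta4, a glutathione transferase for lipid aldehydes, was at 481 ± 88.3 CPM in ADQ and 632 ± 75.9 in control (edgeR adjusted p = 0.196), and Ptgr1, a reductase of reactive aldehydes and quinones, at 11.5 ± 1.17 CPM in ADQ and 14.6 ± 2.44 in control (edgeR adjusted p = 0.268). Markers of surface epithelium, which a dissection can carry along, stand beside Aldh3a1. Krt5, a basal epithelial keratin, was at 0 to 0.132 CPM in ADQ, and at 24.7, 0.355, 316, 10.03 and 117 CPM in control 1 to 5. Controls 3 and 5, the highest in Krt5, were also the highest in Aldh3a1, at 166 and 229 CPM. Control 2, the lowest control in Krt5, had Aldh3a1 at 102 CPM, above every ADQ library and above control 4 (94.8 CPM). The 8 markers of that list tested summed to 0.0135 to 0.0193% of counts in ADQ and 0.0149 to 0.213% in control. Their mean was -0.498 ± 0.302 log2 CPM in ADQ and 3.65 ± 2.53 in control, and the groups did not overlap in it. Control 2 (-0.11) lay just above the highest ADQ library, ADQ 3 (-0.20). This difference passed (exact two-sided permutation p = 0.00794, the smallest possible, and 0.0278 adjusted over the marker lists). The part of these markers in the Aldh3a1 values was not tested.

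Of 23 other genes of the glutathione system, 1 passed: Glrx, glutaredoxin, which reduces glutathionylated proteins. It was at 22.3, 21.3, 22.05, 23.2 and 21.3 CPM in ADQ 1 to 5 and at 16.5, 18.4, 14.2, 14.1 and 17.4 CPM in control 1 to 5. All 5 ADQ libraries stood above all controls, and the ADQ values lay close together. Glrx rose 1.37-fold (log2 fold change 0.45, SE 0.10, edgeR adjusted p = 0.0474); its call was lost in 8 of 10 fits that leave out 1 library, with an adjusted p of up to 0.144 without control 4, and its log2 fold change stayed between 0.41 and 0.50. The median of the list was -0.18, with 19 of 23 below 0. Gsto1, a glutathione transferase, ordered the controls as Krt5 did, at 40.8 to 47.5 CPM in ADQ and at 242, 40.9, 1342, 139 and 440.3 CPM in control 1 to 5 (edgeR adjusted p = 0.143). Gpx4, which reduces lipid peroxides in membranes, was at 2149.7 ± 468 CPM in ADQ and 2932 ± 534 in control (log2 fold change -0.45, edgeR adjusted p = 0.249).

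The thioredoxin and peroxiredoxin list had 0 of 18 calls and a median of -0.07. Its smallest p belonged to Msrb2, a mitochondrial methionine sulfoxide reductase, at 43.3 ± 6.29 CPM in ADQ and 55.5 ± 6.67 in control (edgeR adjusted p = 0.185). The list of superoxide and metal handling had 0 of 11 calls and the lowest median of the 8 pathway lists, -0.27. There Mt1, a metallothionein, was at 2298 ± 690.3 CPM in ADQ and 3343 ± 653 in control, Mt2 at 72.3 ± 24.1 in ADQ and 104 ± 20.8 in control, and Ccs, the copper chaperone of Sod1, at 45.8 ± 6.72 in ADQ and 55.0 ± 5.24 in control (edgeR adjusted p = 0.245, 0.306 and 0.302). Haem and iron genes had 0 of 19 calls and a median of -0.07; Trf, transferrin, was at 19545 to 24309 CPM in ADQ and 25063 to 29489 in control without overlap, yet did not pass (log2 fold change -0.29, edgeR adjusted p = 0.28). Peroxisomal genes had 0 of 16 calls and a median of -0.08, the nearest to a call being Pex6, part of the import machinery that brings catalase into peroxisomes, at 77.6 ± 4.15 CPM in ADQ and 94.4 ± 4.2 in control (log2 fold change -0.28, edgeR adjusted p = 0.0992).

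**Figure D4:**
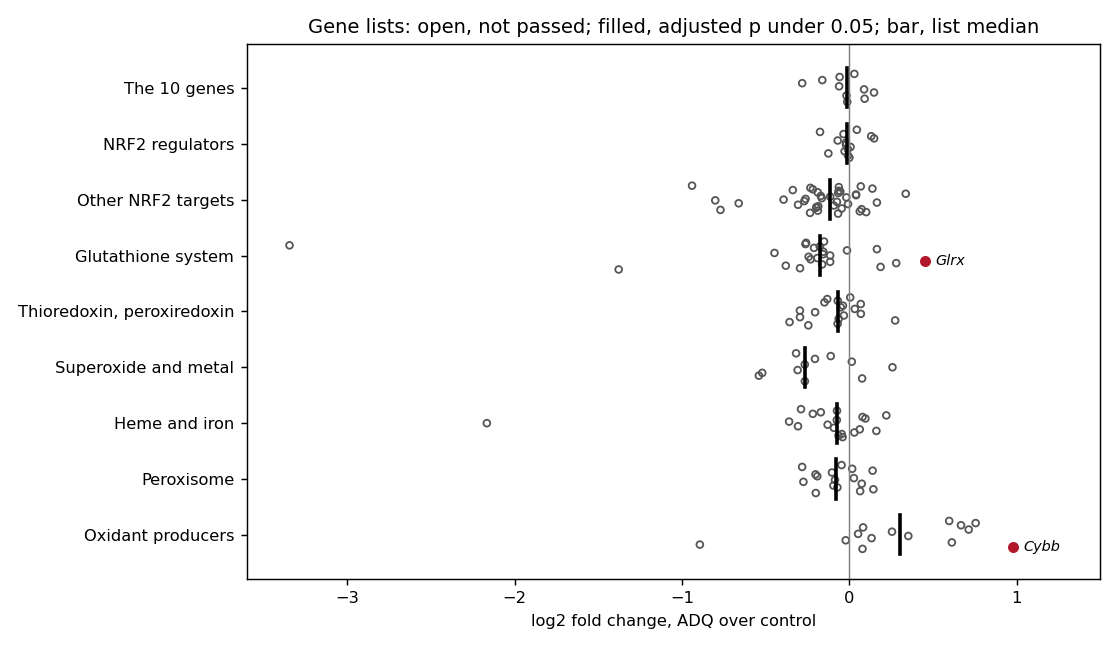
Log2 fold change, ADQ over control (horizontal axis), of each tested gene in the set of 10 and in 8 further lists (rows). Open points did not pass, filled points had an adjusted p under 0.05 and bars are list medians; the median of the 10 genes is -0.01 and that of oxidant producers 0.30, and the filled points are Glrx and Cybb.

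Genes whose products generate oxidants had the highest median of the 8 pathway lists, 0.30, with 12 of 14 tested above 0. The 1 call was Cybb, the catalytic subunit of the phagocyte NADPH oxidase, at 151, 154, 139, 132 and 124 CPM in ADQ 1 to 5 and 76.2, 69.2, 62.9, 68.5 and 78.6 CPM in control 1 to 5. The lowest ADQ library stood well above the highest control, and Cybb rose 1.97-fold (log2 fold change 0.98, SE 0.09, edgeR adjusted p = 2.1e-04). Its partner in the membrane, Cyba, was at 385 ± 90.6 CPM in ADQ and 365 ± 67.9 in control (log2 fold change 0.08, 95% interval -0.27 to 0.43). Cybb is a gene of macrophages and neutrophils, and the marker lists of both had higher means in ADQ. Of 10 neutrophil markers listed, 6 were tested, 5 with a log2 fold change above 0 and 1 below, and 0 passed. Ly6g, Mpo, Elane and Ngp did not pass the filter on low counts. The 6 neutrophil markers tested averaged 1.63 ± 0.261 log2 CPM in ADQ and 1.16 ± 0.252 in control, and the 14 lymphocyte markers 2.21 ± 0.196 in ADQ and 0.855 ± 0.701 in control. Neither list overlapped between the groups (exact two-sided permutation p = 0.00794 each, the smallest possible; adjusted over 14 marker lists, 0.0278). Their summed levels were low, 0.00257 to 0.00352% of counts in ADQ and 0.00243 to 0.00317% in control for neutrophils, and 0.0096 to 0.014% in ADQ and 0.00294 to 0.0102% in control for lymphocytes. With the macrophage list as a covariate the log2 fold change of Cybb was 0.79 and no longer passed (edgeR adjusted p = 0.151). Because that list separates the groups, 0 of all 20684 genes were called in that fit, so the lost call cannot tell what part macrophages have. The part of macrophages, neutrophils and lymphocytes in the Cybb values was not tested. Rac2, Ncf1 and Xdh, which encodes xanthine oxidoreductase, had log2 fold changes of 0.75, 0.35 and 0.60 without passing (edgeR adjusted p = 0.0871, 0.131 and 0.20). Among the 10 genes, by comparison, the upper bound of the 95% interval in the same libraries was 0.13 for Nqo1 and 0.36 for Hmox1. It was highest for Gclc, at 0.41.

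The authors' deposited table lists all 10 genes, none with an adjusted p under 0.05. In the authors' deposited table Sod1 has a log2 fold change of -0.35 (adjusted p = 0.107), Sod2 -0.20 (adjusted p = 0.121), Nfe2l2 0.12 (adjusted p = 0.176) and Hmox1 0.13 (adjusted p = 0.374). The unadjusted p in the authors' deposited table was under 0.05 for 3 of the 10, at 0.0156 for Sod1, 0.0211 for Sod2 and 0.0469 for Nfe2l2. In the authors' deposited table, 5.42% of all 15860 genes have an adjusted p under 0.05. Of the further pathway genes, 144 are in the authors' deposited table, with 5 higher and 7 lower in ADQ under 0.05. The 5 higher in the authors' deposited table are Cybb (log2 fold change 0.98, adjusted p = 3.9e-05), Rac2 (0.82), Xdh (0.65), Glrx (0.45) and Ncf1 (0.36). The 7 lower in the authors' deposited table are Mt1 (-0.63), Mt2 (-0.61), Gpx4 (-0.50), Msrb2 (-0.40), Gsta4 (-0.38), Trf (-0.33) and Pex6 (-0.27), with adjusted p from 0.0235 to 0.0485. In the edgeR test 10 of these 12 genes, all but Cybb and Glrx, did not pass.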

How the data were processed

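RNA was taken into TRIzol, purified on NucleoSpin columns and amplified by SMARTer, per the labels' protocols. The submitters' processing notes name GRCm38, bcl2fastq, DRAGEN, edgeR and limma; their roles and versions, and the strand setting, were not stated, so reads from antisense genes cannot be told apart. Read counts in whole numbers were deposited for each Ensembl ID, and 287 repeats of an ID were dropped. A second table deposited by the authors gives log2 CPM, log2 fold changes and p-values, raw and adjusted. Its score columns (t, log odds and a signed linear fold), made by the authors and named as in limma output per the file headers, were not used. Genes were tested on the counts with edgeR 4.0.16 (R 4.3.3; filterByExpr, minimum count 10; TMM; robust quasi-likelihood fit, group alone). SE is the size of the log2 change divided by the root of F, and 95% intervals use the moderated degrees of freedom. On simulated data, with changes set in genes of at least 1 CPM, the test recovered 35.8% of genes changed 1.5-fold. It recovered 70.1% of those changed 2-fold and 86.4% of those changed 4-fold. The median SE was 0.09 for the 10 genes and 0.18 over all genes tested, so these shares do not describe the 10 genes. Recovery was not measured for the 10 genes on their own. Marker lists were compared in mean log2 CPM (prior count 2) by exact permutation over 252 assignments, correlations with 100000 permutations. No 2 libraries agreed within sampling noise (smallest chi-square per degree of freedom 33.9). Alternatives were other scalings and filters, DESeq2 1.42.0, voom (limma 3.58.1), a non-robust fit, leaving out each library, the replicate number as a block, and marker covariates; the length covariate, the second length and the ratios were chosen after seeing the data. The 10 genes and all lists were chosen with earlier results of these data known. Genes named are the 10, each list gene that passed or else up to 3 with the smallest p, and the nearest gene by Pearson r; Keap1, Bach1, Sqstm1, Gsto1, Gpx4, Mt2, Cyba, Krt5 and the genes without a call named in lists with one were added after their values were seen.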

Additional observations from a re-analysis of the deposited data

Results flagged for a closer look

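In a group of 5 libraries, 1 stood apart from the rest in 5 of 48 groups examined (10 genes and 14 marker lists, each in ADQ and control), and chance gives about 1 in 20. Sod1 was at 173 CPM in ADQ 1, far above the 90.2 to 114 CPM of the other ADQ libraries. Rod photoreceptor markers averaged 5.93 log2 CPM in control 1, against 3.45 to 3.84 in the other controls. Fibroblast markers averaged 8.09 log2 CPM in control 3, against 7.59 to 7.71 in the other controls. Adipocyte markers averaged 1.88 log2 CPM in control 5, against 3.76 to 4.45 in the other controls. Skeletal muscle markers averaged 5.14 log2 CPM in ADQ 5, against 7.19 to 7.61 in the other ADQ libraries.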

How the results depend on the processing

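None of the 10 genes was called under any of the 24 alternatives, and Nfe2l2, Sod1 and Sod2 kept their direction in all of them. The other 7 genes changed sign in at least 1 alternative, and the cause was not tested. With library size alone, which moved the median of all genes to 0.10, the log2 fold change was 0.020 for Nqo1, 0.064 for Gclm, 0.023 for Srxn1 and 0.066 for Cat. It was -0.14 for Hmox1 with the macrophage covariate (which also gave 0.52 for Gclc and -0.35 for Sod2), -0.0078 for Gclc and 0.0081 for Cat with the rod covariate, and 0.0076 for Nqo1, 0.051 for Gclm, -0.046 for Txnrd1 and 0.0059 for Cat with the RPE covariate. With the erythroid covariate it was 0.024 for Gclm, 0.0054 for Srxn1 and 0.012 for Cat. Without 1 library each, Gclm ran from -0.053 to 0.028, Txnrd1 from -0.017 to 0.10, Cat from -0.043 to 0.021 and Gclc from -0.0017 to 0.21. The endothelium marker difference was 0.012 without ADQ replicate 5.

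Over all genes the number called was 171, but 768 with DESeq2, 664 with voom, 0 with the macrophage covariate (which separates the groups), 110 with the erythroid covariate and 535 with the length covariate; leaving out 1 library gave 78 (without control 4) to 357 (without control 5), and under 100 also without ADQ 2, 3 or 4 or control 1. Of the 147 further pathway genes, 2 were called, but 1 with RLE or upper-quartile scaling, with no count filter, or with the rod or erythroid covariate, 0 with the macrophage covariate, 7 with DESeq2 or the length covariate (3 higher and 4 lower each) and 9 with voom (4 higher and 5 lower); leaving out 1 library gave 1 to 3. Cybb kept its call in 23 of 24 alternatives, all but the macrophage covariate (0.79, adjusted p = 0.151 by edgeR), and Glrx in 10. The deviations of same-numbered libraries had correlations from -0.13 to 0.26, over 0.1 in 1 of 5 pairs, and 1 of 5 was best with its own number. So few pairs cannot settle whether the numbers pair the samples. The replicate block called 694 genes, 14 of the pathway genes (3 higher and 11 lower) and 0 of the 10. With that block the log2 fold change of Sod1 was -0.29 (edgeR adjusted p = 0.0825).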
